A study of Mus musculus with 6 samples.

Results

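Myoepithelial cells of C3(1)-Tag mice (females, FVB/NJ background) were described from single-cell RNA sequencing at 3 states of the mammary gland. A cell was taken as myoepithelial when it had 200 or more detected genes, under 10% mitochondrial UMIs (unique molecular identifiers, one per captured transcript), 2 or more UMIs of Krt5 plus Krt14, 2 or more of Acta2, at least 1 UMI of 2 or more of Oxtr, Cnn1, Pdlim3, Il17b and Myh11, and none of Ptprc or Pecam1. The cells were thus chosen by the measured UMIs of 10 genes, and the rule found 816 of them among 23835 barcodes, of which 22244 passed the filters on genes and mitochondrial UMIs. Prepuberty was the whole mammary gland at 5 weeks, DCIS (ductal carcinoma in situ) the whole gland at 14 weeks with in situ lesions, and Tumor a palpable mammary tumor at over 18 weeks, with 2 libraries each. All 6 libraries came from mice that carry the SV40 large T antigen under the C3(1) promoter, so that none is free of the transgene, and age, puberty and disease state change together and cannot be told apart. The labels do not say that the libraries of a state came from separate animals, so p-values measure the spread between these libraries, which may be technical. The labels give overnight digestion in collagenase and hyaluronidase and the v2 droplet kit for each library. The methods of the study instead give this digestion for glands only, a Miltenyi kit for tumors, and the v3 droplet kit for Tumor 2.

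Myoepithelial cells form the outer layer of mammary ducts, between the luminal cells and the basement membrane. They carry basal keratins together with the contractile proteins of smooth muscle, contract in response to oxytocin to move milk, and lay down basement membrane. In carcinoma in situ this layer still surrounds the lesion, and in invasive carcinoma it is lost.

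The libraries held 2917 to 4839 barcodes and 30041293 to 61479653 UMIs. The myoepithelial cells had a median of 6321.5 to 7076 UMIs in the 4 libraries of Prepuberty and DCIS, against 9976 to 11406 in luminal cells of the same libraries, which were taken as cells with Epcam, 4 or more UMIs of Krt8 plus Krt18, at most 1 UMI of Acta2 and none of the 5 supporting genes, Ptprc or Pecam1. Pairs of libraries shared 9 to 39 barcodes, none of them a myoepithelial cell in both.

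The share of myoepithelial cells was higher in DCIS than in Prepuberty, and no cell of either Tumor library met the rule. In Prepuberty, 71 of 4388 cells (1.62%, 95% Clopper-Pearson interval 1.27 to 2.04) and 70 of 3603 cells (1.94%, 1.52 to 2.45) were myoepithelial. In DCIS, 157 of 3168 cells (4.96%, 4.23 to 5.77) and 518 of 4003 cells (12.9%, 11.9 to 14.0) were. The state means were 1.78% ± 0.23 (SD, n = 2) and 8.95% ± 5.65 (SD, n = 2), a 5.03-fold difference with no overlap between the libraries; the exact two-sided permutation p was 0.3333, the smallest that 2 against 2 libraries allow. The 2 DCIS libraries differed from each other by more than the Prepuberty mean, and the ratio was 2.78 without DCIS 2 and 7.27 without DCIS 1. These intervals cover counting error only.

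The direction rested on the denominator. Among myoepithelial plus luminal cells, the myoepithelial share was 9.58% and 47.6% in the Prepuberty libraries and 14.2% and 39.7% in the DCIS libraries, so that the states overlapped and the mean was 0.94 times that of Prepuberty (exact permutation p of 1). Prepuberty 2 held 77 luminal cells, against 670 in Prepuberty 1 and 951 and 787 in the DCIS libraries.

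**Figure D1:**
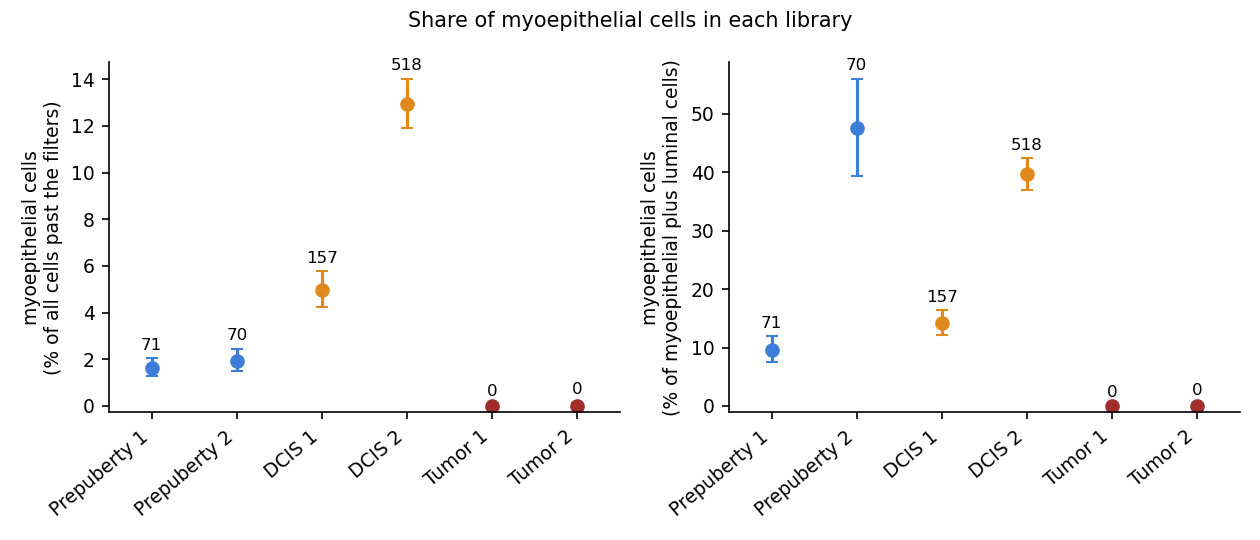
Myoepithelial cells in each library as a percentage of all cells past the filters (left) and of myoepithelial plus luminal cells (right). Points are single libraries, bars are 95% Clopper-Pearson intervals, and the number above each point is the count of myoepithelial cells; the DCIS libraries sit above both Prepuberty libraries on the left and among them on the right.

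The cells carried the markers of the label. Krt14, the basal keratin, was found in 95.8% to 100% of them and Krt5, its partner, in 61.8% to 83.1%. Acta2, the smooth muscle actin of the contractile apparatus, had a median of 35 and 17.5 UMIs per cell in the Prepuberty libraries and 38 and 24 in DCIS, with a highest cell of 439. Oxtr, the oxytocin receptor, was seen in 52.5% to 60.0% of cells, Cnn1 (calponin) in 67.1% to 87.9% and Pdlim3 in 70.1% to 88.7%. These genes chose the cells, and their values are a description. Of the 816 cells, 254 had all 5 supporting genes, 252 had 4, 195 had 3 and 115 had 2, the smallest number allowed; 44 cells, 7 of them in Tumor, had 1 supporting gene and met every other condition. At the Acta2 threshold 18 cells stood just inside and 16 just outside (2 in Tumor), and at the keratin threshold 50 and 64 (1 in Tumor).

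A set of 14 myoepithelial markers that the rule does not use was present as well. It holds the transcription factors Trp63 and Snai2, the keratin Krt17, the contractile genes Tagln, Myl9, Mylk, Actg2, Tpm2, Lmod1 and Synm, the ligands Nrg1 and Jag2, and the secreted Dkk3 and Cxcl14. The median myoepithelial cell showed 8, 7, 8 and 8 of the 14 in Prepuberty 1, Prepuberty 2, DCIS 1 and DCIS 2, compared with 1 to 3 in luminal cells and 4 to 5 in pericytes and smooth muscle of those libraries. Trp63, the p63 factor of basal epithelium, was seen in 45.1%, 45.7%, 31.2% and 38.8% of myoepithelial cells and in none of the pericytes and smooth muscle. The 7 pericyte markers together gave 3.57 to 7.26 CPM (UMIs of a gene per 1000000 UMIs of the cell class) in myoepithelial cells, with Kcnj8 and Abcc9 at 0 in all 4 libraries.

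Luminal transcripts were also found in these cells. Krt8 plus Krt18 reached 2 or more UMIs in 54.9% and 65.7% of Prepuberty and 82.2% and 79.7% of DCIS myoepithelial cells, at a median of 2 to 4 UMIs, compared with a median of 26 to 122 in luminal cells. Among cells with 3 of 4 fibroblast markers and no Epcam, with no condition on keratins, 4.55%, 0.877%, 1.61% and 4.29% reached 2 UMIs. The part of free or luminal RNA in the myoepithelial value was not tested. Only 1, 0, 7 and 12 myoepithelial cells reached the luminal median. Leaving out all cells with 2 or more UMIs of these keratins lowered the shares to 0.729% and 0.666% in Prepuberty and 0.884% (95% interval 0.588 to 1.27) and 2.62% in DCIS, a ratio of 2.51. It was 1.27 without DCIS 2 and 3.76 without DCIS 1, settings added after seeing the data, and the interval of DCIS 1 overlapped those of both Prepuberty libraries.

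The transgene was rare in the myoepithelial layer. T antigen UMIs were found in 1 of 71, 0 of 70, 5 of 157 and 2 of 518 myoepithelial cells, 12 UMIs in all, which is 1.41%, 0 (which allows up to 4.29%, by a limit of 3 counts), 3.18% and 0.386% of cells. In luminal cells of the same libraries the shares were 13.1%, 2.60%, 27.5% and 16.0%. In fibroblasts (3 of 4 fibroblast markers, no Epcam and no keratin) they were 0.156%, 0.141%, 0.595% and 0. In the Tumor libraries 6.38% and 32.1% of cells by the same fibroblast rule had a T antigen UMI, so that this class is not always free of it. With each cell thinned to 3000 UMIs, which leaves out 1 to 24 shallower myoepithelial cells a library, the DCIS shares were 0.649% and 0.202% in myoepithelial cells and 9.18% and 4.34% in luminal cells. In Prepuberty 1 they were then 0 and 3.34%. Prepuberty 2 had 0 of 65 myoepithelial and 0 of 70 luminal cells, so that its classes did not differ at this depth. The fibroblast shares at the same depth were 0.317% and 0, close to the myoepithelial values.

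Few myoepithelial cells carried mitotic transcripts. Mki67 plus Top2a reached 2 or more UMIs in 7.04% and 0 of Prepuberty and 6.37% and 2.32% of DCIS myoepithelial cells, so that the states overlapped. The luminal shares were 40.4%, 7.79%, 59.3% and 44.0% in the same order, above the myoepithelial share in each of the 4 libraries, in cells of greater depth.

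**Figure D2:**
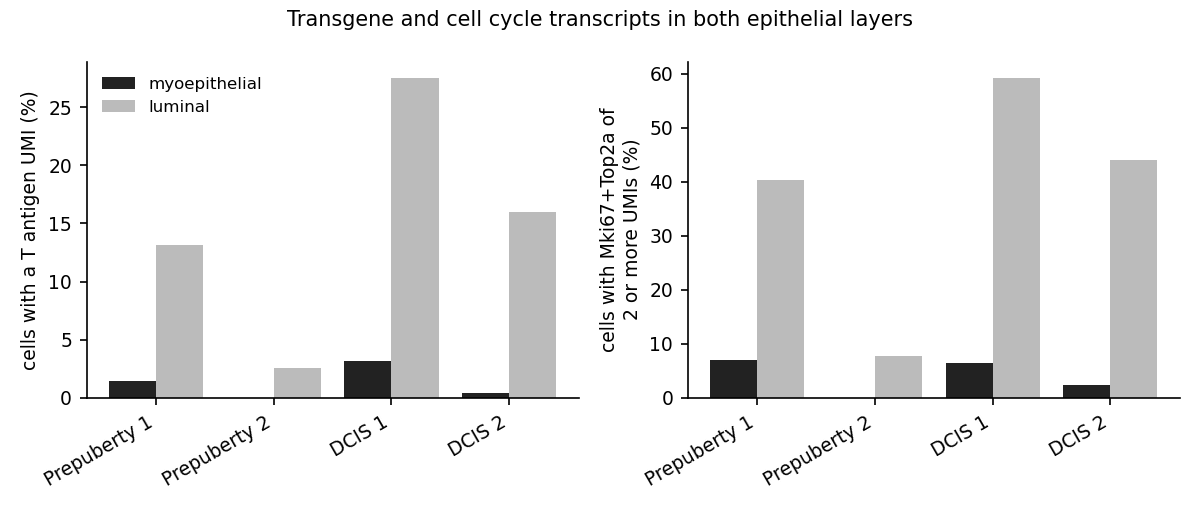
Percentage of myoepithelial (black) and luminal (grey) cells with a T antigen UMI (left) and with 2 or more UMIs of Mki67 plus Top2a (right) in each Prepuberty and DCIS library, not thinned. Bars are single libraries; the black bar is the lower of the pair in every library, at most 3.18% on the left and 7.04% on the right.

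Gene expression of the layer was then compared between DCIS and Prepuberty, with UMIs summed over the myoepithelial cells of each library (551024 and 543959 UMIs in Prepuberty, 1379745 and 4201556 in DCIS) and edgeR's quasi-likelihood test with Benjamini-Hochberg adjustment over all genes. The stress factor Atf3, the chaperone Hspa1b, the histone genes Hist1h2bc and Hist1h1c, Ankrd1 and the lysosomal Cd68 rose, and Clca3a2 fell. Of 7228 genes tested outside the rule, 7 passed an adjusted p of 0.05, which is 0.0968% (6 higher, 0.083%, and 1 lower, 0.0138%), while 1339 had an unadjusted p under 0.05 (18.5%; 9.1% higher and 9.42% lower). The libraries of the states did not overlap for 51.5% of the genes tested (25.3% higher, 26.1% lower). DESeq2 called 97 genes, 72 of them higher, among them these 7. Without Prepuberty 1 edgeR called no gene, with 1403 at an unadjusted p under 0.05, and without Prepuberty 2 it called 1 other gene; without DCIS 1 and without DCIS 2 it called 130 and 264, each including all 7.

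Atf3, a transcription factor induced by cell stress (chr1:191170296-191218039 on the minus strand of GRCm38, as are all gene positions below), had 1 and 2 UMIs in the Prepuberty libraries and 160 and 528 in DCIS. That is 1.81 and 3.68 CPM, compared with 116 and 126, a log2 change of 5.65 (SE 0.41, edgeR adjusted p of 0.0124). It was seen in 1 and 2 Prepuberty cells and in 71 (45.2%) and 160 (30.9%) DCIS cells, and the 5 highest cells held 22.5% and 21.0% of its DCIS UMIs. Luminal Atf3 was 46.2, 59.0, 128 and 162 CPM in the same order of libraries. The change in myoepithelial cells exceeded that in luminal cells by 4.25 on the log2 scale (SE 0.53, edgeR adjusted p of 0.00311).

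Hspa1b, an inducible Hsp70 chaperone gene (chr17:34956436-34959238, minus strand), was at 5.44 and 3.68 CPM in Prepuberty and 60.9 and 100 in DCIS (log2 change 4.35, SE 0.49, edgeR adjusted p of 0.0473). It was seen in 4.23% and 2.86% of Prepuberty and 29.9% and 32.0% of DCIS cells. Fibroblasts were at 19.0 and 11.55 and then at 172 and 161 CPM, and the difference between the myoepithelial and luminal changes was 0.24 (edgeR adjusted p of 0.91). Its near-identical copy Hspa1a was at 23.6 and 68.0 CPM in Prepuberty and 225 and 645 in DCIS (log2 change 3.50, SE 0.61, edgeR adjusted p of 0.102), and how the counting divided reads between the copies is not known.

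The promoters of this pair are shown because both copies were higher in DCIS in both libraries and are hard to tell apart by sequence. Each is 300 bases, from 250 before to 50 after the start of the gene (RefSeq, GRCm38.p6, minus strand, Hspa1b at chr17:34959189-34959488 and Hspa1a at chr17:34972107-34972406), with GAANNTTC, the core of a heat shock element and its own reverse complement, in capitals.
Hspa1b: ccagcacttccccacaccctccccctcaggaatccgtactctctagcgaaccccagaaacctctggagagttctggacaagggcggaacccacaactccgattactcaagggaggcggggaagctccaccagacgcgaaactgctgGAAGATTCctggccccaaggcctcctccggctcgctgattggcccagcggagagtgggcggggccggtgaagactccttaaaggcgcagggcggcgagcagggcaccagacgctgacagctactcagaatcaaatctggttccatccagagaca
Hspa1a: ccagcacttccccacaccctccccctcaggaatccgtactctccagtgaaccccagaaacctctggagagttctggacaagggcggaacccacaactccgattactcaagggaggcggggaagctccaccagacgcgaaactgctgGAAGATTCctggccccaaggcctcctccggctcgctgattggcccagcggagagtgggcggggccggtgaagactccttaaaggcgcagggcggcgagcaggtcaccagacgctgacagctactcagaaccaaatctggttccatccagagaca
The windows matched at 296 of 300 positions (98.7%), and both held 1 match, at position 147 from the 5′ end. GAANNTTC was found in 7.86% of 32851 promoter windows of the same length.

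Hist1h2bc (chr13:23684199-23692908, plus strand) and Hist1h1c (chr13:23738808-23740367, plus strand) code for histones H2B and H1. Hist1h2bc was at 63.5 and 29.4 CPM in Prepuberty and 912 and 565 in DCIS, a log2 change of 4.19 (SE 0.49, edgeR adjusted p of 0.0473). Hist1h1c was at 88.9 and 73.5 and then at 894 and 526, a log2 change of 3.35 (SE 0.38, edgeR adjusted p of 0.0473). Both were seen in over 60% of the DCIS cells of either library. Histone genes belong to families of similar copies, and how the counting divided reads within a family is not known.

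Ankrd1 (chr19:36111961-36120099, minus strand), a nuclear ankyrin-repeat protein gene that responds to stretch and to YAP, had 1 UMI in each Prepuberty library and 116 and 277 in DCIS (1.81, 1.84, 84.1 and 65.9 CPM; log2 change 5.52, SE 0.50, edgeR adjusted p of 0.0316). Few cells carried it: 15 (9.55%) and 46 (8.88%) in DCIS, and 5 cells held 87.1% and 68.6% of the UMIs. In luminal cells of the DCIS libraries Ankrd1 was at 224 and 391 CPM and was seen in 47.6% and 42.2% of cells, and in fibroblasts in 1.19% and 1.81%. The part of luminal RNA in the myoepithelial value was not tested.

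Cd68 (chr11:69664213-69666153, minus strand), a protein of lysosomes that is best known from macrophages, was at 19.96 and 31.3 CPM in Prepuberty and 133 and 135 in DCIS (log2 change 2.62, SE 0.28, edgeR adjusted p of 0.0473). It was seen in 14.1% and 14.3% of Prepuberty and in 55.4% and 48.3% of DCIS myoepithelial cells, and in DCIS the 5 highest cells held 21.9% and 7.03% of its UMIs. Luminal cells were at 13.1, 29.1, 18.2 and 19.1, and the difference between the changes was 2.76 (SE 0.36, edgeR adjusted p of 0.00412). Other macrophage transcripts varied. In the DCIS myoepithelial cells Fcer1g was at 5.80 and 1.43, C1qa at 1.45 and 1.19 and Lyz2 at 15.9 and 7.85 CPM, whereas cells with Ptprc and Fcer1g had 697 and 798 of Cd68, 2635 and 2949 of Fcer1g and 11832 and 12633 of Lyz2. Lyz2 had no UMI in Prepuberty and 22 and 33 in DCIS. Cd74 was lower in DCIS, at 14.5 and 11.0 CPM in Prepuberty and 7.25 and 5.47 in DCIS myoepithelial cells. The lysosomal Ctsd did not rise, at 330 and 677 and then at 298 and 290. Lgals3 (galectin 3), which luminal cells and fibroblasts also carried, was at 65.3 and 73.5 CPM in Prepuberty and 448 and 214 in DCIS myoepithelial cells (log2 change 2.48, SE 0.41, edgeR adjusted p of 0.0913), against 1691 and 2479 in the DCIS cells with Ptprc and Fcer1g. The part of macrophage RNA in the Cd68 value was not tested. Of the 7 immune markers that the rule does not use, Cd3d and Cd3g were at 0 in all 4 libraries.

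Clca3a2 (chr3:144796559-144819494, minus strand), of the calcium-activated chloride channel regulator family, was at 178 and 186 CPM in Prepuberty and 36.2 and 37.8 in DCIS, and fell by 2.07 on the log2 scale (SE 0.23, edgeR adjusted p of 0.0473). It was seen in 57.7% and 65.7% of Prepuberty and in 21.7% and 21.2% of DCIS cells. The state values did not overlap and were close within each state. Each of the 7 genes kept its direction in every alternative that gave a value, and all but Ankrd1 and Atf3 missed the threshold when the size factors of DESeq2 were used in edgeR, with adjusted p of up to 0.201 over the alternatives.

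The 5 genes with the smallest p among those lower in DCIS and not past the threshold were Ccl7, Apobec3, Ccl2, Mdk and Steap4. Mdk, the growth factor midkine, was at 158 and 147 CPM in Prepuberty and 22.5 and 37.4 in DCIS (log2 change -2.09, SE 0.31, edgeR adjusted p of 0.0731), and Apobec3, a cytidine deaminase gene, at 52.6 and 75.4 and then at 10.1 and 10.7 (log2 change -2.37, SE 0.31, edgeR adjusted p of 0.0555). Steap4, a metalloreductase gene, was at 19.96 and 27.6 and then at 1.45 and 2.62 (log2 change -3.14, SE 0.48, edgeR adjusted p of 0.0773). The chemokine genes Ccl2 and Ccl7, which attract monocytes, stood on single cells: 1 cell held 443 of 576 Ccl2 UMIs in Prepuberty 1 and 1 held 288 of 363 in Prepuberty 2. Their log2 changes of -2.83 and -3.56 (SE 0.40 and 0.45, edgeR adjusted p of 0.0664 and 0.0536) were -1.21 and -1.54 once doublets were left out.

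**Figure D3:**
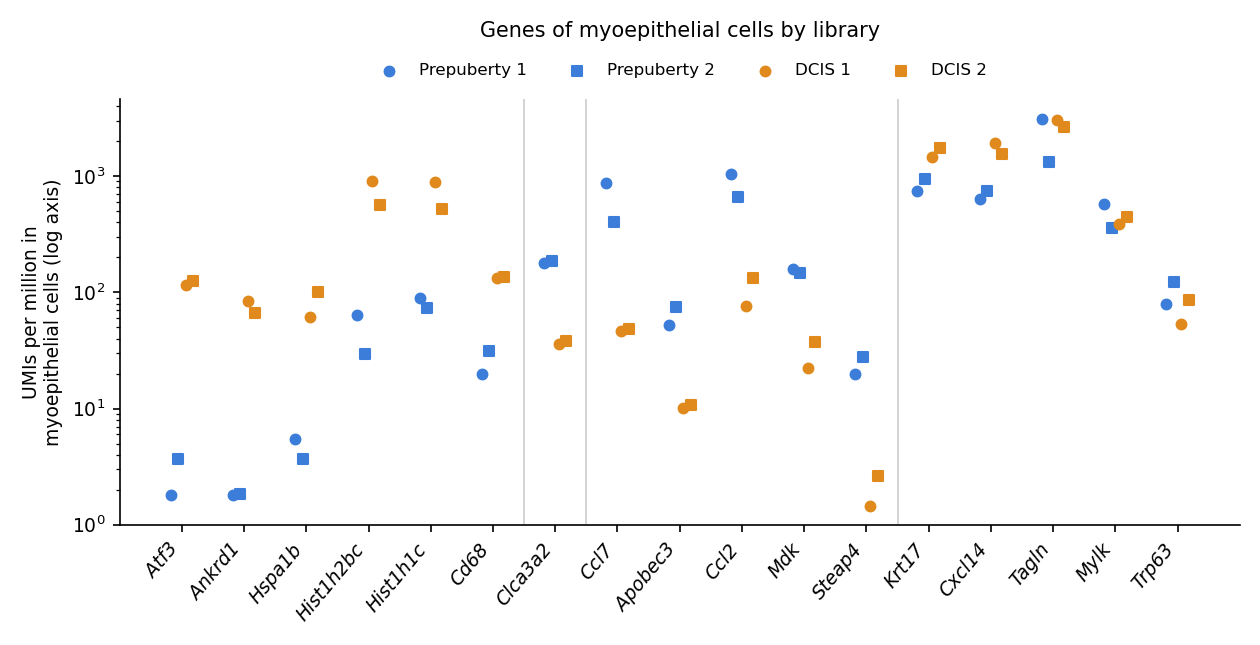
Levels of single genes in myoepithelial cells, in CPM, on a log axis; each point is 1 library (circles replicate 1, squares replicate 2). From left to right, separated by lines, are the 6 genes that rose, the gene that fell, the 5 lower genes with the smallest p that did not pass, and 5 of the myoepithelial markers that the rule does not use, of which Tagln, Mylk and Trp63 overlapped between states.

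No contractile gene passed the test. Of 22 contractile genes, 17 were tested outside the rule, 0 passed, 2 had an unadjusted p under 0.05 and both of these were higher; the median log2 change was 0.54, beside -0.02 over all genes tested. Smtn (smoothelin) was at 103 and 82.7 CPM in Prepuberty and 194 and 173 in DCIS (log2 change 1.19, SE 0.26, edgeR adjusted p of 0.122), and Srf, the serum response factor that drives such genes, at 30.9 and 16.5 and then at 46.4 and 38.3 (log2 change 1.03, SE 0.40, edgeR adjusted p of 0.238). Of the 17 genes, 15 had a positive change, and the states did not overlap for 7 (41.2%), all of them higher. Over all genes tested, 51.5% did not overlap (25.3% higher, 26.1% lower). Tagln (transgelin) at 3127, 1318, 3040 and 2674 and Mylk (myosin light chain kinase) at 581, 358, 384 and 448 overlapped between the states.

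Among the 14 markers outside the rule, 0 passed and 3 had an unadjusted p under 0.05, all higher in DCIS, with a median of 0.37. Of all genes tested, 9.1% were higher at this p. Cxcl14, a secreted chemokine, was at 639 and 746 CPM in Prepuberty and 1933 and 1557 in DCIS (log2 change 1.56, SE 0.29, edgeR adjusted p of 0.109). Krt17 was at 739 and 949 and then at 1450 and 1762 (log2 change 1.16, SE 0.28, edgeR adjusted p of 0.137), and Nrg1, a ligand of ERBB receptors, at 23.6 and 9.19 and then at 26.8 and 45.9. Tpm2 was also higher in both DCIS libraries, at 1281 and 1399 and then at 1836 and 1630. So were Lmod1 (187 and 93.8, then 201 and 190) and Synm (61.7 and 14.7, then 87.0 and 62.4). Trp63 overlapped at 79.9, 123, 53.6 and 86.4, as did Myl9, Actg2, Jag2 and Dkk3. Snai2 was lower in DCIS in both libraries (76.2 and 47.8, then 31.2 and 33.8) with an edgeR adjusted p of 0.322.

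Of 20 basement membrane genes, 18 were tested, 0 passed, and the 3 with an unadjusted p under 0.05 were all lower, with a median of -0.43. By comparison, 9.42% of all genes tested were lower at this p. Agrn (agrin) was at 123 and 158 CPM in Prepuberty and 63.1 and 62.8 in DCIS (log2 change -0.93, SE 0.23, edgeR adjusted p of 0.141), and Lamb1, a laminin chain, at 32.7 and 25.7 and then at 8.70 and 10.5 (log2 change -1.36, SE 0.40, edgeR adjusted p of 0.179). Of 22 basal keratin and adhesion genes 15 were tested and 0 passed, with a median of 0.08; Cldn1, a tight junction claudin, had no UMI in Prepuberty and was at 31.2 and 12.6 CPM in DCIS (edgeR adjusted p of 0.127). None of 11 basal transcription factors, 18 ligands, 12 secreted inhibitors and 12 proteases tested passed. The smallest p in these lists belonged to Procr and Klf5, to Cxcl14 and Vegfa (16.3 and 31.3, then 54.4 and 98.8 CPM), to Timp3 and Serpinb5, and to the matrix protease Adamts1 (9.07 and 12.9, then 63.8 and 65.0; log2 change 2.77, SE 0.34, edgeR adjusted p of 0.0536) and Adamts4.

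The immediate early and heat shock genes were the list with most calls. Of 23 genes, 22 were tested, and Atf3 and Hspa1b passed. At an unadjusted p under 0.05, 11 were higher in DCIS and 3 lower (9.1% and 9.42% over all genes tested). The median log2 change was 0.87. The list held values in both directions. Nr4a1 and Klf4 were higher (log2 changes of 3.15 and 2.60), as were the chaperones Dnajb1 and Hspb1 (2.34 and 2.00), whereas Egr1 and Fosb, which are induced within minutes, were lower (-1.74 and -1.36); none of these 6 passed. Summed over the list, the level was 3782 and 8591 CPM in Prepuberty and 7872 and 9975 in DCIS, which overlapped. The same transcripts answer to tissue dissociation, and the part of the digestion in them was not tested.

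Inflammatory and interferon genes had no call. Over all genes tested, 9.1% were higher and 9.42% lower at an unadjusted p under 0.05. Of 21 genes of the NFKB list tested, 4 were higher and 5 lower at an unadjusted p under 0.05, and the lower ones were Ccl2, Ccl7 and the serum amyloid genes Saa1, Saa2 and Saa3. Of 23 interferon genes, 6 were lower at an unadjusted p under 0.05 and 0 higher, with a median of -0.28; Isg15, a ubiquitin-like modifier, was at 523 and 614 CPM in Prepuberty and 185 and 222 in DCIS (log2 change -1.25, SE 0.24, edgeR adjusted p of 0.114), and Usp18, the protease that removes it, at 92.6 and 84.6 and then at 29.7 and 28.1 (log2 change -1.40, SE 0.28, edgeR adjusted p of 0.114). Of 14 proliferation genes tested, 11 had a positive change and 0 passed, with a median of 0.53, beside -0.02 over all genes tested. The smallest p were those of Stmn1 (221, 158, 99.3 and 62.1) and Hmgb2. In the RB and p53 list 0 of 13 passed, with Ccnd2 (cyclin D2) at 58.1 and 51.5 and then at 15.9 and 17.9, and Cdkn1a (p21) at 118 and 95.6 and then at 157 and 182.

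Of 11 luminal markers, 8 were tested, 0 passed, and 5 had an unadjusted p under 0.05, all higher in DCIS, with a median of 1.34. Among all genes tested, 9.1% were higher at this p. Krt18 was at 285 and 241 CPM in Prepuberty and 929 and 749 in DCIS (log2 change 1.89, SE 0.29, edgeR adjusted p of 0.0773), and Cldn3 at 34.5 and 33.1 and then at 135 and 78.8 (log2 change 1.87, SE 0.37, edgeR adjusted p of 0.114). Luminal Krt18 was at 4517, 6883, 3035 and 5334 CPM in the same libraries. Summed, the luminal markers were at 1485 and 1684 and then at 2768 and 2216 CPM in the myoepithelial cells, and their part in the other changes was not tested. With the cells of 2 or more Krt8 plus Krt18 UMIs left out, 2449 genes could be tested, none was called and 282 had an unadjusted p under 0.05. Of 2 fibroblast markers tested 0 passed, with Dcn at 250 and 116 and then at 64.5 and 80.45, and Mbp and Fabp4, of the Schwann cell and adipocyte lists, overlapped.

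The change was next compared with that of luminal cells in the same libraries, to ask which genes moved differently in the outer layer, by the interaction of cell class and state with the library as a block. Of 11110 genes tested, 148 passed (1.33%), 83 with the more positive change in myoepithelial cells (0.747%) and 65 with the more negative (0.585%), and 1697 had an unadjusted p under 0.05 (15.3%; 8.81% positive and 6.46% negative). The libraries did not overlap for 49.6% of the genes (27.9% positive and 21.7% negative). DESeq2 called 114, of which 108 were shared, and its split was 54 and 60; with its size factors in edgeR, 62 were higher and 67 lower. The count was 420 without DCIS 2, 75 without Prepuberty 1 and 61 without Prepuberty 2, of which 139, 44 and 46 were among the 148.

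Genes past the threshold were ranked where the myoepithelial to luminal ratios did not overlap between the states. Among the 10 genes with the largest positive differences, Atf3 had a positive change in both cell classes and the others had a negative luminal change, none past the threshold there. Errfi1, a feedback inhibitor of EGF receptor signalling, was at 142 and 134 CPM in Prepuberty myoepithelial cells and 501 and 472 in DCIS, while luminal cells had 180 and 405 and then 115 and 172 (difference 2.99, SE 0.42, edgeR adjusted p of 0.00575). Srxn1, which reduces oxidized peroxiredoxins, was at 18.1 and 16.5 and then at 34.1 and 170 in myoepithelial cells, with DCIS 2 far above DCIS 1. Alpl (alkaline phosphatase) was at 23.6 and 11.0 and then at 52.9 and 69.0, P4ha2, a collagen prolyl hydroxylase, at 1.81 and 7.35 and then at 29.0 and 30.0, and Fxyd2, a sodium pump regulator, at 1.81 and 3.68 and then at 15.9 and 18.6. Wnt5a, a noncanonical Wnt ligand, hardly differed in myoepithelial cells (83.5, 95.6, 109 and 101) and was lower in DCIS in luminal cells (54.5, 69.6, 6.46 and 18.8). Spaar was at 3.63, 18.4, 25.4 and 17.1 in myoepithelial cells, which overlapped in these values without TMM scaling. In luminal cells it was at 13.7 and 4.26 and then at 0.467 and 0.62. Cited4 had log2 changes of 1.64 in myoepithelial and -1.58 in luminal cells.

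Hmox1 (heme oxygenase 1) also had a more positive change in myoepithelial cells and was singled out after its values were seen. It was at 327 and 165 CPM in Prepuberty and 1131 and 2233 in DCIS, and was seen in 60.6%, 47.1%, 82.8% and 82.8% of the cells, against 57.3, 39.8, 55.7 and 113 CPM in luminal cells (difference 2.24, SE 0.31, edgeR adjusted p of 0.00575). Other cell classes carried it as well: fibroblasts had 866, 679, 819 and 2250, pericytes and smooth muscle 885, 405, 1214 and 1601, and cells with Ptprc and Fcer1g 2135, 2437, 1657 and 1829. The DCIS against Prepuberty change in myoepithelial cells alone was 2.96 (SE 0.50, edgeR adjusted p of 0.102).

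The most negative differences included 2 acute-phase genes. Saa1 was at 185 and 55.2 CPM in Prepuberty myoepithelial cells and 11.6 and 13.3 in DCIS, and at 103, 13.5, 131 and 153 in luminal cells (difference -4.51, SE 0.38, edgeR adjusted p of 0.000402). Saa2 was at 116, 22.1, 0.725 and 6.19 in myoepithelial and at 41.4, 0.71, 64.9 and 79.9 in luminal cells (difference -5.78, SE 0.63, edgeR adjusted p of 0.0014). Few cells carried either: the 5 highest cells held 83.9% to 100% of Saa1 UMIs in each library. Sostdc1, a secreted inhibitor of BMP and Wnt signals, was at 83.5 and 11.0 and then at 0 and 2.38 in myoepithelial cells, and at 0.861, 0, 1.25 and 7.70 in luminal cells.

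Other genes with negative differences had low luminal levels in Prepuberty. Pdk4 (pyruvate dehydrogenase kinase) was at 32.7, 20.2, 52.9 and 51.4 CPM in myoepithelial cells, and at 0.479 and 1.42 and then 51.5 and 19.4 in luminal cells. Sox11, a transcription factor of embryonic epithelium, was at 0.861 and 0.71 and then 67.1 and 30.0 in luminal cells and overlapped in myoepithelial cells (16.3, 3.68, 31.2 and 2.14). Irak1bp1 was at 1.91, 2.13, 32.9 and 14.0 in luminal cells and at 23.6, 18.4, 8.7 and 9.52 in myoepithelial cells, and Stmn2 and Wnt6 had under 50 UMIs in each myoepithelial sum.

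By list, 3 of 24 paracrine genes passed the threshold with a positive difference and 2 with a negative one, while 15 of the 24 had a positive value (median 0.36, beside 0.08 over all genes tested). Igfbp5, an insulin-like growth factor binding protein, was at 495 and 428 and then at 40.03 and 53.6 CPM in luminal cells and at 526 and 419 and then at 175 and 194 in myoepithelial cells (difference 2.20, SE 0.28, edgeR adjusted p of 0.00376). Igfbp2, another member, was at 477, 401, 134 and 208 in myoepithelial cells and under 3 in luminal cells (difference -3.18, SE 0.60, edgeR adjusted p of 0.0243). Of 25 NFKB genes 5 (Saa1, Saa2, Saa3, Ccl2 and Ccl7) passed with a negative difference and 0 with a positive one, while 11 had a positive value, 4 of them at an unadjusted p under 0.05. With doublets left out, the difference of Ccl2 turned from -1.99 to 0.22 (edgeR adjusted p of 0.744), that of Ccl7 was -0.05 (edgeR adjusted p of 0.973) and that of Saa3 was -1.67 (edgeR adjusted p of 0.0653). Of 18 contractile genes, 16 had a positive value (median 0.60, beside 0.08 over all genes tested). Smtn passed with a positive difference (1.54, SE 0.34, edgeR adjusted p of 0.0464), which missed the threshold in 9 of 12 alternatives. Mylk passed with a negative difference, at a luminal level of 0.766 to 6.23 CPM. Of 19 basal keratin and adhesion genes, 10 had a positive and 2 a negative difference at an unadjusted p under 0.05, with a median of 0.85. The shares over all genes tested were 8.81% and 6.46%. Dst (dystonin, of hemidesmosomes) passed with a positive difference (1.99, SE 0.40, edgeR adjusted p of 0.0311) and Lgals7 (galectin 7) with a negative one (-3.56, SE 0.55, edgeR adjusted p of 0.0111). Of 23 proliferation genes 4 had a positive value (median -0.49), and Stmn1 (stathmin) passed with a negative difference (-2.66, SE 0.33, edgeR adjusted p of 0.00311), at a luminal level of 207 and 99.4 and then 466 and 441 CPM. In the immediate early and heat shock list Atf3 and Btg2 passed with a positive difference and Egr1 with a negative one, and in the RB and p53 list Trp53inp1 passed with a positive one. Epcam, Krt8 and Krt18, which are in the luminal marker list, also chose the luminal cells, so that their differences are a description. Of 11 luminal markers 9 had a positive value (median 1.93), 7 of them at an unadjusted p under 0.05 (8.81% of all genes tested). Krt18, Cldn3 and Cldn4 passed, with differences of 2.38, 2.08 and 2.61. With doublets left out the differences were 2.08, 1.88 and 2.34, with edgeR adjusted p of 0.0597, 0.0639 and 0.0832. Basement membrane (18 tested), protease (15), interferon (24), secreted inhibitor (15) and basal transcription factor (15) genes had 0 calls in either direction, with 0, 2, 5, 7 and 5 at an unadjusted p under 0.05. Such a p was found for 15.3% of all genes tested.

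**Figure D4:**
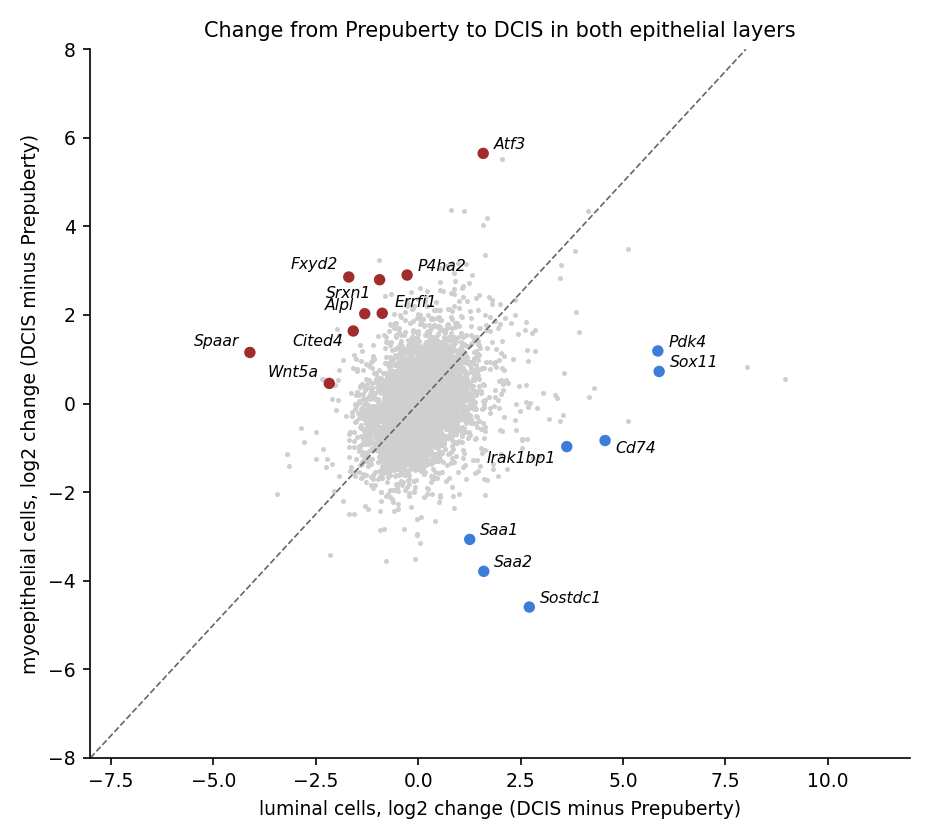
Log2 change from Prepuberty to DCIS in luminal cells (horizontal) and in myoepithelial cells (vertical). Grey points are genes tested in both cell classes, and the dashed line marks equal change. The named points are those of the 10 largest positive (red) and 10 largest negative (blue) differences that could be fitted in both. These were ranked among genes past the threshold whose myoepithelial to luminal ratios did not overlap between the states. Atf3 is at 5.65 in myoepithelial cells, and Saa1, Saa2 and Sostdc1 are below 0 there and above 0 in luminal cells.

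No myoepithelial cell by the rule was found in Tumor. The count was 0 of 4476 cells in Tumor 1, which allows a share of up to 0.067% by a limit of 3 counts, and 0 of 2606 in Tumor 2, which allows up to 0.115% by the same limit. The upper ends of the 95% Clopper-Pearson intervals drawn in the plot of shares were 0.0824% and 0.141%. The Tumor share was lower than the DCIS mean by 8.95 percentage points (difference -8.95, exact permutation p of 0.3333, the smallest that 2 against 2 allow), with differences of -4.96 without DCIS 2 and -12.9 without DCIS 1. By the study's methods, tumors were dissociated with another kit than glands and Tumor 2 was run on another droplet kit, and the part of either in the count of 0 cannot be told apart from that of the state. No looser rule was run as an alternative, and the alternatives that were run could not add a cell to a count of 0. The Tumor cells were deeper than those of the other states, at a median of 10867.5 and 13745 UMIs. With 0 cells, no gene could be tested between Tumor and DCIS.

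Keratins and Acta2 were seldom found in the same Tumor cell. Krt5 plus Krt14 reached 2 UMIs in 2194 cells of Tumor 1 (49.0%) and 1794 of Tumor 2 (68.8%), compared with 6.43%, 3.22%, 24.8% and 19.5% in the Prepuberty and DCIS libraries. Acta2 reached 2 UMIs in 124 (2.77%) and 34 (1.30%) Tumor cells, compared with 7.77% to 19.9%. Only 3 and 13 Tumor cells had both. Of the cells with the keratins, 75.6% and 59.0% had a T antigen UMI, and 0.137% and 0.167% had a UMI of Myh11, the smooth muscle myosin, against 17.9% to 54.8% in Prepuberty and DCIS. The other supporting genes varied: in the keratin cells of Tumor 1 and Tumor 2, Cnn1 was seen in 4.56% and 17.2%, against 22.5% to 60.4% in Prepuberty and DCIS, and Il17b in 17.0% and 5.74%, against 20.8% to 65.2%. Pdlim3 was seen in 3.33% and 0.669%, against 16.6% to 72.4%, and Oxtr in 0.365% and 2.23%, against 13.1% to 44.0%. Of all cells past the filters, Krt14 was seen in 60.7% and 77.3% in Tumor. Krt5 was seen in 0.38% and 6.95% of them, against 1.75% and 2.53% in Prepuberty and 5.43% and 11.4% in DCIS, so that only Tumor 1 was below the other states.

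**Figure D5:**
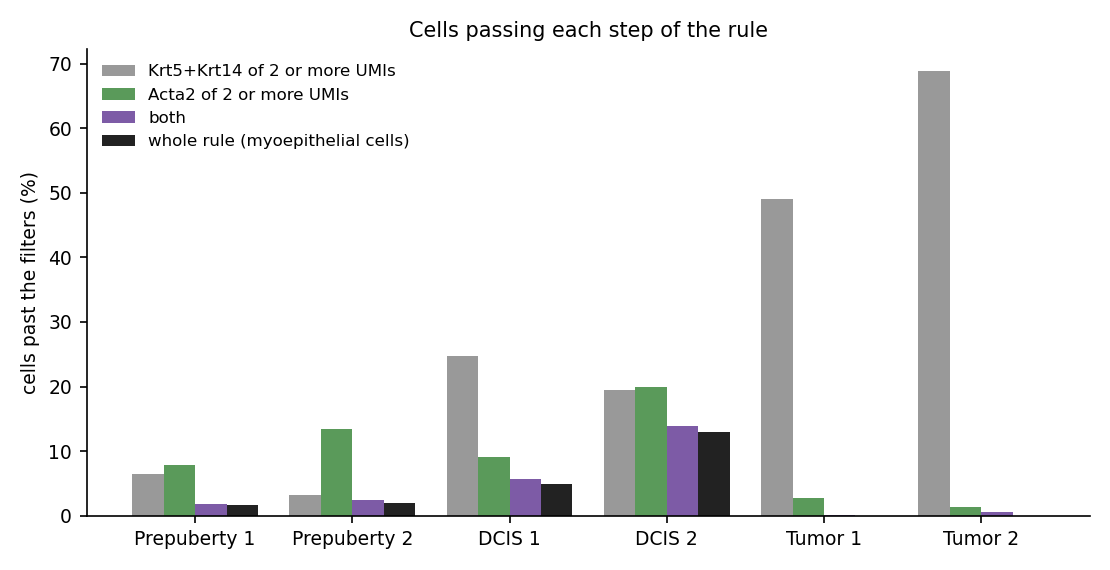
Percentage of the cells past the filters that pass the keratin step, the Acta2 step, both, and the whole rule, in each library. The grey bars reach 49.0% and 68.8% in Tumor, while the green bars fall to 2.77% and 1.30% and the black bars are at 0.

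Of the 16 Tumor cells with keratins and Acta2, of which 1 had Ptprc and 1 had Pecam1, none had a UMI of Krt5, none had 2 supporting genes, and 11 had a T antigen UMI. In Tumor 1, the cell with most Acta2 had 216 UMIs of it, with 158 of Tagln, 75 of Actg2 and 183 of Col1a1, the collagen of fibroblasts, beside 2 of Krt14. In Tumor 2, the cell with 5 UMIs of Oxtr had 110 of Epcam, an epithelial adhesion gene, and 40 of Krt18. Among the Tumor 2 cells, 7 of 13 had a UMI of Trp63.

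A further 46 and 48 Tumor cells had the keratins and 2 or more supporting genes with no Acta2, and 39 and 43 of them had no Ptprc or Pecam1. Of the 39 and 43, 36 and 30 had Il17b, 15 and 38 had Cnn1, 21 and 3 had Pdlim3, 6 and 17 had Oxtr, and 1 and 1 had Myh11; a T antigen UMI was in 35 and 32. Trp63 was seen in 1 and 23 of them, and in 0.804% and 27.6% of all cells of Tumor 1 and Tumor 2.

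The markers outside the rule gave counts close to those of the rule in Prepuberty and DCIS, but not in Tumor. Cells with 7 or more of the 14 markers, a number that 62.9% to 83.1% of myoepithelial cells reached, were 79, 64, 156 and 458 in the Prepuberty and DCIS libraries, of which 59, 44, 124 and 386 met the rule. Tumor 1 and Tumor 2 held 37 (0.827%) and 83 (3.18%) such cells, none of which met the rule. The share in Tumor 2 was above the 1.80% and 1.78% of the Prepuberty libraries. This count was not thinned, and cells past the filters had a median of 13745 UMIs in Tumor 2, against 9112 and 7491 in Prepuberty. The part of depth in these shares was not tested. Of the 37 and 83 Tumor cells, 21 and 67 had a T antigen UMI, 25 and 8 had 2 or more UMIs of Acta2, and 2 and 16 had Krt5. In the earlier libraries 0 to 6 such cells had a T antigen UMI.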

How the data were processed

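Single-cell libraries were made by the authors on a 10x droplet platform, and the deposited values are raw UMI counts per gene and barcode. Per the file headers, Cell Ranger 3.0.2 made the matrices, with features for the SV40 large T antigen and a neomycin resistance gene. The submitters' processing notes name the build mm10, with no role. Of 31055 features, 99.9% matched GENCODE M21 (GRCm38) by identifier, which gave the positions.

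Members and gene lists were chosen with earlier results of these data known. Members were found by the rule stated above. UMIs were summed per library and class and tested in R 4.3.3 with edgeR 4.0.16 (TMM, filterByExpr, quasi-likelihood test, threshold 0.05), after a check on simulated data. DESeq2 1.42.0 was an alternative. Levels are CPM, the UMIs of a gene per 1000000 UMIs of the cell class, without the TMM factors. Counts of genes whose libraries did not overlap used TMM-scaled values. Shares were compared by an exact permutation test over libraries in scipy 1.17.1, with 95% intervals. Doublets were the highest Scrublet scores (scanpy 1.11.5), at 0.8% per 1000 barcodes, and were kept in the main results. The 10 rule genes stayed in the fits and were not tested. Epcam, Krt8 and Krt18, which chose the luminal cells, were not set aside.

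Named genes were those past the threshold with non-overlapping libraries and the 10 largest changes in each direction (with fewer than 3, also the 5 of smallest p), up to 4 called members of each list or else the 2 of smallest p, the markers outside the rule and the rule genes. Alternatives were another scaling, no filter, a stricter rule (5 UMIs of keratins, 5 of Acta2, 3 supporting genes), a mitochondrial limit of 5%, thinned sums, doublets, luminal keratins or T antigen cells left out, and each library left out.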

Additional observations from a re-analysis of the deposited data

Results flagged for a closer look

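The genes below had a log2 change from Prepuberty to DCIS that differed between myoepithelial and luminal cells by the interaction test in edgeR. They passed an adjusted p of 0.05, and their myoepithelial to luminal ratios did not overlap between the states. Among such genes they were the 10 largest differences in each direction. The difference, myoepithelial minus luminal, was 5.28 for Spaar, 4.77 for Fxyd2, 4.25 for Atf3, 3.57 for Srxn1, 3.48 for P4ha2, 3.47 for Alpl, 3.26 for Cited4, 3.04 for Stc2, 2.99 for Errfi1 and 2.87 for Wnt5a. It was -10.1 for Stmn2, -8.26 for Sostdc1, -6.03 for Wnt6, -5.88 for Sox11, -5.78 for Saa2, -5.44 for Cd74, -4.67 for Mef2c, -4.54 for Pdk4, -4.51 for Saa1 and -4.37 for Irak1bp1. Stmn2 had 7, 0, 1 and 0 UMIs in the 4 myoepithelial sums, and Wnt6 and Sostdc1 had none in the luminal cells of Prepuberty 2. The size of these fitted values thus rests on sums at or near 0, and their dependence on the prior count was not tested. Atf3, Errfi1, Saa1 and Saa2 passed the threshold in all 12 alternatives.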

How the results depend on the processing

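The difference in the myoepithelial share between DCIS and Prepuberty, 7.17 percentage points, was reversed to -1.67 points with epithelial cells as the denominator and was 1.06 points with the luminal keratin cells left out; leaving out 1 library gave 3.18 to 11.2 points. Between Tumor and DCIS the difference was -8.95 points, and -26.9 and -1.75 points under the same 2 settings, with -12.9 to -4.96 points on leaving out a library. The Tumor count was 0 in all settings, none of which could add a cell. The 7 genes called in myoepithelial cells became 2 with the size factors of DESeq2, 563 with no filter on low counts, 0 without the luminal keratin cells, 32 under the stricter rule, 17 with the mitochondrial limit of 5%, 35 without T antigen cells, 33 with thinned sums, 97 in DESeq2, and 0 to 264 on leaving out a library. The lone library of a state is then assumed to vary like the others. With the replicate number as a block the count was 649; the same-numbered libraries deviated together with a correlation of 0.252 over 7236 genes, but nothing in the labels ties the numbers, so the block was not used. The 148 differences from luminal cells became 506 with no filter and 61 to 420 on leaving out a library. The difference of Stmn2 was reversed to 0.21 without Prepuberty 1, in a range of -13.075 to 0.21 on leaving out a library. The fit with Tumor added could not be run, since Tumor had 0 cells. The shares without T antigen cells and in the deeper cells before thinning were added after seeing the data and kept direction. The causes were not tested. With 551024 and 543959 UMIs in the Prepuberty sums, genes of a few CPM are not measured precisely.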
